A study of Vitis vinifera with 2 samples.

Results

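The 2 tandem arrays of stilbene synthase genes of grapevine (Vitis vinifera), on chromosomes 16 and 10, and the genes of the transcription factors MYB14 and MYB15 were described here by the peaks that chromatin immunoprecipitation followed by sequencing (ChIP-seq) of VlbZIP30 gave around them. A peak was a member when its nearest transcription start site (TSS), or the gene named in its annotation, belonged to identifiers VIT_16s0100g00700 to VIT_16s0100g01200, to VIT_10s0042g00840 to VIT_10s0042g00930, to VIT_07s0005g03340 (MYB14) or to VIT_05s0049g01020 (MYB15). Of the 49173 peaks in the list, 52 were members. The chromosome 16 array held 36 of them, the chromosome 10 array 2, MYB14 8 and MYB15 6.

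Both libraries came from transgenic vines aged 4 months that overexpressed VlbZIP30, a transcription factor of the basic leucine zipper (bZIP) class, with a FLAG epitope in 3 copies under the CaMV 35S promoter, a viral promoter active in most plant tissues. All vines had gone without water for 20 days, and their uppermost leaves were used. The anti-FLAG group and the control group had 1 library each; the title of the control says input and its antibody field says IgG. A single list from these libraries gives no replicate error and allows no test of a condition: neither unstressed vines nor vines without the tagged protein were analysed here, so every value below describes where and how strongly peaks were scored in this list. No read counts were used and the depth is unknown.

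Stilbene synthases make resveratrol, the parent compound of the grapevine stilbenes, which act as antimicrobial defence compounds and accumulate under stress. They use the same substrates as chalcone synthase, the entry enzyme of the flavonoid pathway, and in grapevine they form a large family of closely similar copies in tandem arrays. MYB14 and MYB15 are MYB transcription factors known to activate stilbene synthase promoters in grapevine. Factors of the bZIP class bind DNA as dimers at sites with an ACGT core, and several of them act in responses to abscisic acid, the drought hormone.

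The names of the arrays and of both MYB genes were given with the identifiers, and the list allowed only a partial check. All 52 member peaks lay on the chromosome that their identifier names. Exon counts were given for 4 array genes, through peaks in their exons or introns. Stilbene synthase genes typically have a single intron, hence 2 exons, and 1 of the 4, VIT_16s0100g01000, had 2 exons. VIT_16s0100g00740 and VIT_16s0100g01040 had 3 exons each, and VIT_16s0100g00710 had 1. Genes are therefore called members of an array by their number, whether or not each is a stilbene synthase. The numbers from VIT_16s0100g00700 to VIT_16s0100g00740 held 22 of the 36 chromosome 16 member peaks, and neither exon count given there was 2. The handling of reads that align to several copies is not given in the sources used here, so the assignment of a peak to 1 of several similar copies is uncertain, and a copy without a peak is not shown to be unbound.

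Few of the array genes were named by any peak. Gene numbers in the identifiers rise in steps of 10, so the numbers between the ends of an array stand in for its genes, although some numbers may be unused. The chromosome 16 array had 51 such numbers, of which 17 were named by at least 1 peak, as nearest gene or in an annotation (33.3%, 95% Wilson interval 22.0 to 47.0%). Over all 31314 numbers between the ends of the 558 numbered blocks of the annotation, 65.2% were named. In the chromosome 10 array 2 of 10 numbers were named (20.0%, 5.67 to 51.0%). Intervals cover counting error only.

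Promoter peaks, whose centres lie from 1000 bp upstream to 100 bp downstream of a TSS, were found at 9 numbers of the chromosome 16 array (17.6%, 9.57 to 30.3%) and at 1 of the chromosome 10 array (10%, 1.79 to 40.4%). The share over all numbers was 37.3%. Among the array genes that were named at all, 10 of 19 had a promoter peak (52.6%, 31.7 to 72.7%), against 57.2% of all named genes. A single peak was all that 10 of these 19 genes had, against 30.1% of all named genes with 1 peak.

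**Figure D1:**
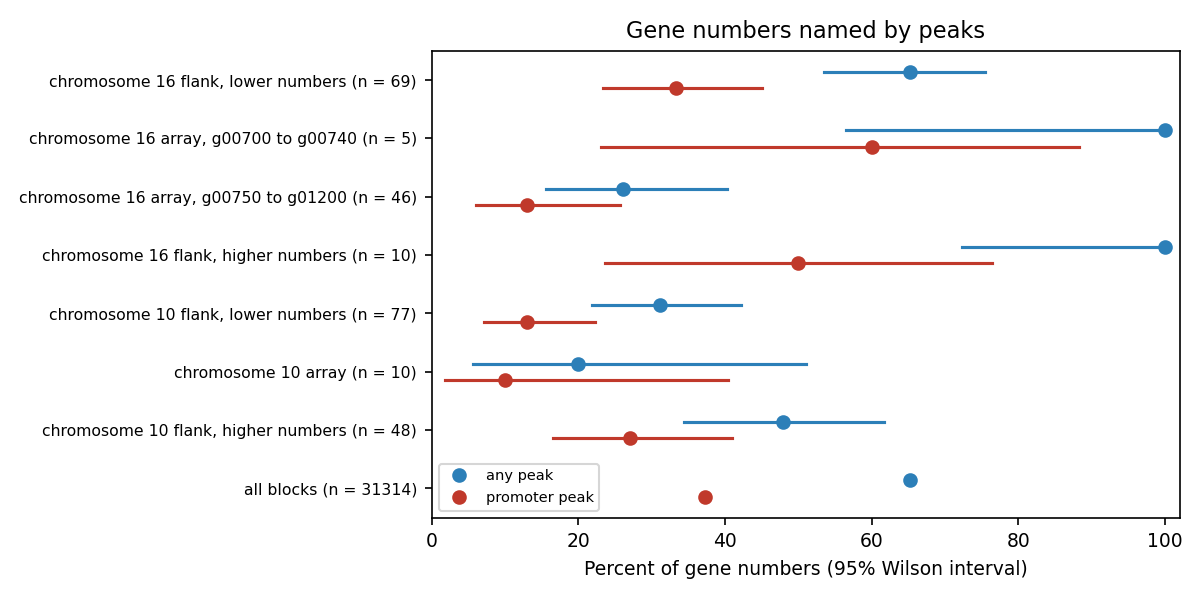
Percent of gene numbers named by any peak (blue) and by a promoter peak (red) in stretches of the 2 blocks that hold the arrays and over all blocks; points are shares, lines 95% Wilson intervals, and n is the count of numbers. The stretch from g00750 to g01200 of the chromosome 16 array lies at 26.1% and 13.0%, while its neighbours on both sides lie higher. The chromosome 10 array at 20.0% lies beside a lower-number flank at 31.2%. Blocks, and so the outer ends of flanks, end at a named number.

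The low share came from most, but not all, of the chromosome 16 array. All 5 numbers from VIT_16s0100g00700 to VIT_16s0100g00740 were named, against 12 of the 46 from VIT_16s0100g00750 to VIT_16s0100g01200 (26.1%, 15.6 to 40.3%); the division between VIT_16s0100g00740 and VIT_16s0100g00750 was chosen after the positions were seen. In the same block, 45 of 69 lower numbers (65.2%, 53.4 to 75.4%) and 10 of 10 higher numbers up to VIT_16s0100g01300 were named. Each block was cut at its lowest and highest named number, while the array ends were fixed beforehand. The outer end of a flank was thus named by construction, which raises the shares of the flanks and of all blocks. Around the chromosome 10 array the picture differed, since 24 of 77 lower numbers (31.2%, 21.9 to 42.2%) and 23 of 48 higher numbers (47.9%, 34.5 to 61.7%) were named, and the interval of the array itself overlapped both.

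Peak density was described across the same division. The division was chosen after the positions were seen, and each span ran from its first to its last peak. The contrast is thus no separate evidence, and the intervals do not allow for this choice. The 5 genes at the start of the chromosome 16 array held 22 peaks within 57.3 kb (16170403 to 16227721), or 384 peaks per Mb (exact 95% Poisson interval 241 to 581), and peaks covered 30.9% of that stretch. The remainder, 442 kb from 16235116 to 16677289, held 14 peaks, or 31.7 per Mb (17.3 to 53.1), and peaks covered 1.60% of it. Chromosome 16 as a whole had 82.8 peaks per Mb and the whole list 101.5. Peaks of other genes stood about as close together just before the array, at -57.2 to -5.54 kb from its first peak. The density of that flank was not computed as a value, but close spacing was not particular to the array start. Coordinates are those of the list, whose genome build is not given in the sources used here.

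**Figure D2:**
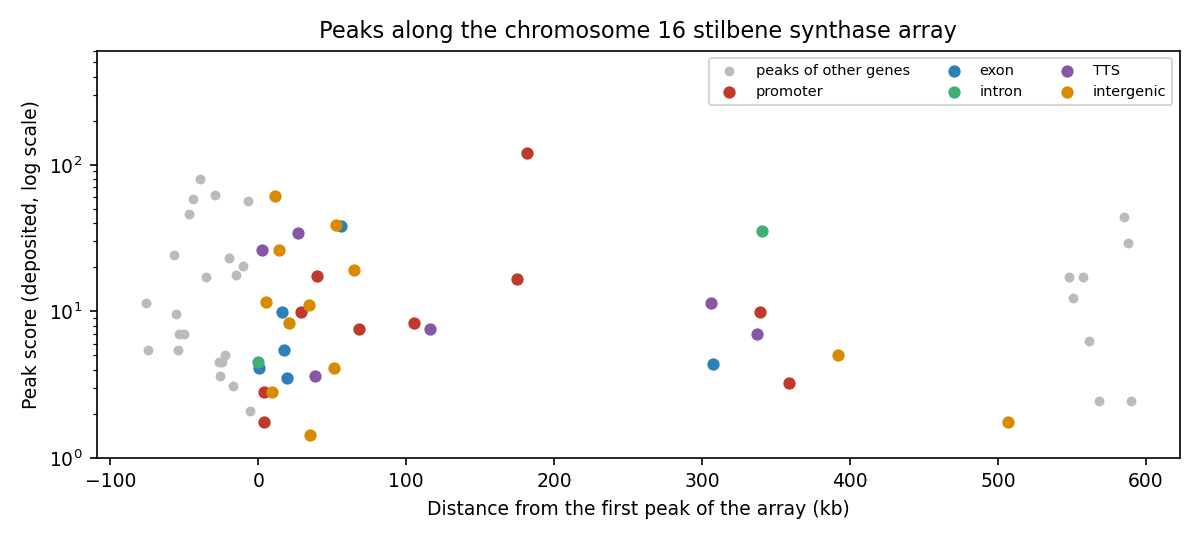
Deposited score (log scale) of each peak against the distance of its centre from the first peak of the chromosome 16 array, in kb; coloured points are members by annotation class and grey points are peaks of other genes within 100 kb of the array. Members crowd in the first 57.3 kb, and grey points crowd just before them. Beyond that stretch 14 members are scattered, among them the highest of the array at a score of 120.

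Long stretches of the array had no peak at all. The longest ran for 124 kb (16352041 to 16476102), after the peak of VIT_16s0100g00860 and before those of VIT_16s0100g01000, and 13 consecutive numbers, VIT_16s0100g00870 to VIT_16s0100g00990, fell in it by their order. The next was 115 kb long (16562268 to 16677080) and took in VIT_16s0100g01110 to VIT_16s0100g01150, 5 numbers. Of the 46386 gaps between neighbouring peaks on the numbered chromosomes, 0.918% were at least as long as the first and 1.04% at least as long as the second, and the median gap was 1507.5 bp. On chromosome 16 alone, 34 of 1821 gaps were as long as the first. Between the 14 peaks of VIT_16s0100g00750 to VIT_16s0100g01200 the median gap was 17.0 kb, against 973 bp between the 22 peaks before them.

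The highest-scoring member was a promoter peak inside the sparse stretch. At VIT_16s0100g00860 a peak of 547 bp (16351494 to 16352040), centred 321 bp upstream of the TSS, had a score of 120, which ranked 38 of 49173 in the whole list and 12 of 12387 among promoter peaks. The score is the authors' value, its scale is not named, and it is used to rank peaks only. The lowest score of the list lay just above the -log10 of 0.05. Whether the score is a value of that kind was not tested. Members with scores from 1.37 to 1.75 thus stood close to the floor of the list, among them the only peak of VIT_16s0100g01160. The peak of VIT_16s0100g00860 ended short of the TSS, and it was the only peak of this gene. Of the 4996 peaks whose length lay within 10% of it, 0 scored higher, and their median score was 8.12. On chromosome 16, 4 peaks scored higher. Its neighbours in the array were modest, with a promoter peak of 16.6 at VIT_16s0100g00840 before it and no peak for 124 kb after it.

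The other promoter peaks of the array ranged from low to average. VIT_16s0100g00730 had a promoter peak with a score of 17.4 centred 39 bp downstream of its TSS, above 61.4% of all promoter peaks. VIT_16s0100g00840 had its promoter peak 726 bp upstream, above 59.9% of them. The promoter peak annotated to VIT_16s0100g01030, at 9.92, and that of VIT_16s0100g00720, at 9.89 and 1905 bp long, lay above 41.4% each. These 4 spanned the middle of the range for promoter peaks, whose median over the list was 12.8.

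Lower down, VIT_16s0100g00780 had a promoter score of 8.26 at 686 bp upstream, and VIT_16s0100g00750 one of 7.59 at 257 bp upstream. VIT_16s0100g01080 had 3.22 at 94 bp downstream. VIT_16s0100g00700 had 2 promoter peaks, with scores of 2.80 and 1.75, the latter above 0.460% of all promoter peaks. Of the 11 promoter peaks in both arrays, 2 reached the upper quartile of the list, a score of 18.5 (18.2%, 5.14 to 47.7%), where 36.4% of all promoter peaks did. The 2 were those of VIT_16s0100g00860 and VIT_10s0042g00840.

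**Figure D3:**
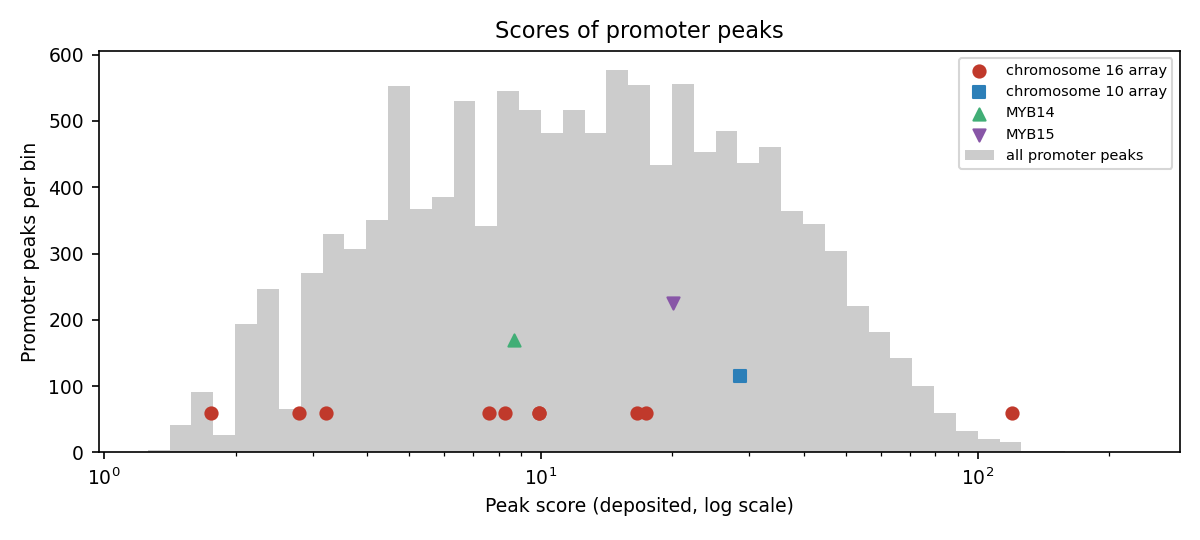
Histogram of the deposited scores of all 12387 promoter peaks (log scale), with the 13 member promoter peaks marked by symbols whose height has no meaning. The peak of VIT_16s0100g00860 stands at the upper end at 120, and the other 9 of the chromosome 16 array lie between 1.75 and 17.4.

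Outside promoters, the dense start of the array held some high-scoring peaks around gene ends and between genes. Of its 22 peaks of all classes, 6 reached the upper quartile of the list (27.3%). That share was 25.5% over all peaks and 37.2% in the chromosome 16 flanks of the same block, so high scores were not particular to this stretch. An intergenic peak of 1943 bp (16180641 to 16182583), 4214 bp upstream of VIT_16s0100g00710, scored 60.9, the second highest of the array. VIT_16s0100g00740 had an intergenic peak of 38.8 centred 2197 bp upstream and a peak of 38.5 over its TSS, annotated to exon 2 of 3 and, at 2552 bp, the longest member. At the transcription termination sites (TTS) of VIT_16s0100g00720 and VIT_16s0100g00700, peaks scored 34.1 and 26.2. The lowest score of the array, 1.44, belonged to an intergenic peak 4946 bp downstream of the TSS of VIT_16s0100g00730. VIT_16s0100g00700 was the nearest gene to 7 peaks, of which 2, with scores of 4.53 and 4.08, lay within VIT_16s0100g00690, a gene outside the array. VIT_16s0100g00710 was nearest to 6, with scores of 9.85, 5.48 and 3.50 in its single exon, and the other three genes to 3 each. High and low peaks therefore stood side by side within these 5 genes.

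In the sparse stretch the peaks other than promoter peaks were few. Next to VIT_16s0100g00860, the highest was an intron peak of 35.5 at VIT_16s0100g01040 (16510613 to 16511684), in intron 1 of 2. The peak before it, 16509572 to 16510206, carried the promoter annotation of VIT_16s0100g01030 although its centre lay 409 bp inside VIT_16s0100g01040, so these 2 genes share it. An intergenic peak 3634 bp upstream of VIT_16s0100g00750 scored 19.1. The TTS peak of VIT_16s0100g01000 scored 11.3 and the one in its exon 2 scored 4.37. VIT_16s0100g00800 had a TTS peak of 7.62, and a peak of 7.02 at the TTS of VIT_16s0100g01030 had VIT_16s0100g01020 as its nearest gene. At the far end, single intergenic peaks scored 5.03 near VIT_16s0100g01100 and 1.74 near VIT_16s0100g01160, and VIT_16s0100g01170 to VIT_16s0100g01200 were not named.

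The chromosome 10 array had only 2 peaks, both in the upper quartile of the list, where 25.5% of all peaks lay. The promoter peak of VIT_10s0042g00840, the lowest number of that array, was 666 bp long (14215465 to 14216130), was centred 314 bp upstream and reached over the TSS. Its score of 28.6 was above 78.6% of all promoter peaks. An intergenic peak of 667 bp (14241201 to 14241867), 5396 bp upstream of VIT_10s0042g00870, scored 22.9. On either side lay 57.6 kb and 88.4 kb without a peak, and VIT_10s0042g00880 to VIT_10s0042g00930, 6 numbers, were not named. Between the nearest peaks of other genes, a span chosen after the data were seen, the array had 2 peaks in 172 kb. That is 11.6 per Mb (1.40 to 41.9), against 86.2 per Mb on chromosome 10. From its first to its last peak, the span used for chromosome 16, it had 75.7 per Mb (9.17 to 274).

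Both MYB genes had many peaks, unlike most but not all array genes, since VIT_16s0100g00700 was nearest to 7 and VIT_16s0100g00710 to 6. MYB14 was the nearest gene to 8 and MYB15 to 6, where the median over 20152 nearest genes was 2 and 1.43% of them had 8 or more peaks and 5.72% had 6 or more. The distances of the peaks placed both genes on the plus strand, with TSSs at 6210930 on chromosome 7 for MYB14 and at 8046871 on chromosome 5 for MYB15. Chromosomes 7 and 5 had 131.5 and 108 peaks per Mb.

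At MYB14 the highest-scoring peak lay upstream of the promoter. It was intergenic, 1626 bp long (6208319 to 6209944), centred 1799 bp upstream of the TSS, and its score of 26.0 was above 83.0% of the list. The promoter peak, 453 bp upstream and 201 bp long (6210377 to 6210577), scored 8.68, above 35.8% of all promoter peaks. A peak in exon 3 of 3 scored 8.65 and one in intron 1 of 2 scored 2.71. The other 4 were intergenic, from 3640 to 13372 bp upstream, with scores from 1.37 to 4.94. No MYB14 peak covered the TSS.

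At MYB15 the highest-scoring peak lay beyond the gene. It was intergenic, 642 bp long (8049474 to 8050115), centred 2923 bp downstream of the TSS, and its score of 44.3 was above 93.6% of the list. The promoter peak (8046462 to 8047101), centred 90 bp upstream, covered the TSS and scored 20.1, above 67.0% of all promoter peaks. An intergenic peak of 1899 bp (8044032 to 8045930), 1890 bp upstream, scored 19.1. The others scored 13.0 at 4500 bp upstream, 5.12 in exon 3 of 3 and 2.77 at 12513 bp downstream. MYB15 had 3 of its 6 peaks in the upper quartile of the list and MYB14 1 of its 8.

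The MYB genes shared part of their layout of peaks. Each had a peak centred 1500 to 2000 bp upstream (1799 and 1890 bp), which was the longest of its gene. Each also had a peak from 4000 to 5000 bp upstream (4792 and 4500 bp), a promoter peak and a peak from 1000 to 1500 bp downstream (1286 and 1195 bp) in exon 3 of 3. Among all 20152 nearest genes 30 had peaks in all 4 windows (0.149%), and among the 1152 with 6 or more peaks 21 did (1.82%). The windows were drawn around the positions seen at these genes, which are among those counted, so these shares are a description. The layouts parted elsewhere. MYB14 also had peaks 13372, 6468 and 3640 bp upstream and a peak in intron 1, and MYB15 had none at like positions. Among the peaks nearest to each gene, MYB15 had its highest score beyond the gene and MYB14 had no peak there. Peaks nearer to the TSS of another gene were not counted.

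**Figure D4:**
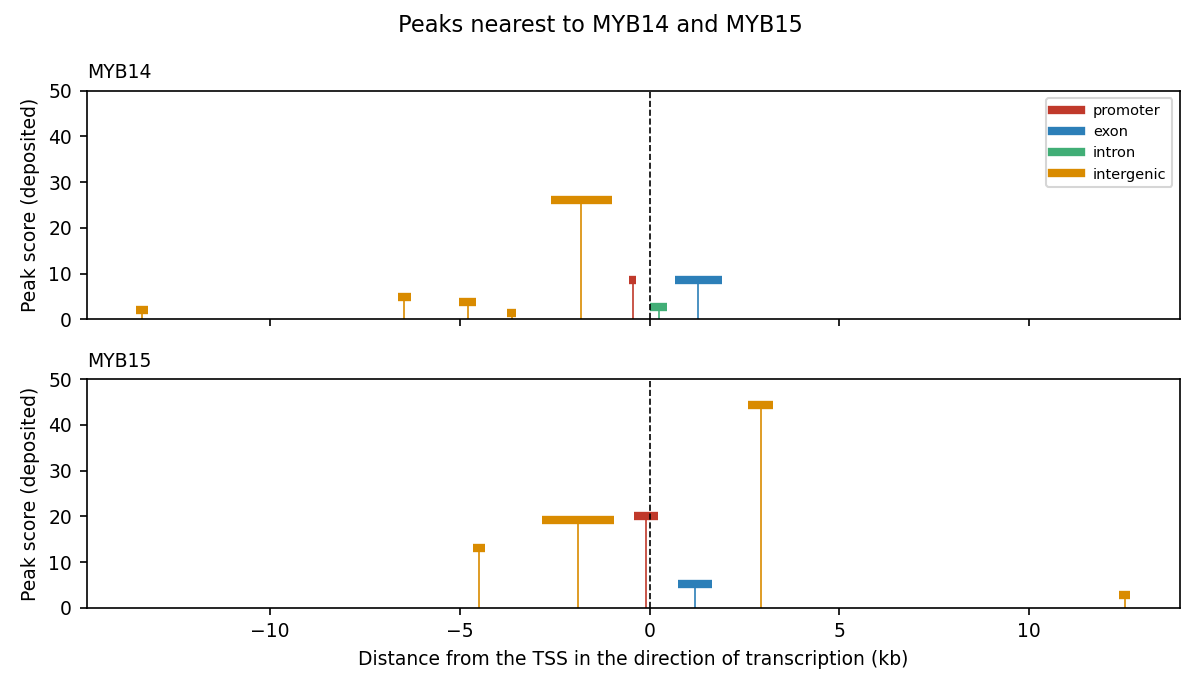
Peaks whose nearest gene is MYB14 (top) or MYB15 (bottom), each drawn as a bar from its start to its end at the height of its deposited score, against the distance from the TSS in kb, negative upstream. Both genes have a long peak at 1799 and 1890 bp upstream; the highest bar is upstream at MYB14 (26.0) and downstream at MYB15 (44.3).

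Within 50 kb of each TSS the neighbours differed. Around MYB14 lay 22 peaks of 7 genes, of which 3 scored above the best MYB14 peak, with a highest score of 42.6 at VIT_07s0005g03370. Around MYB15 lay 18 peaks of 5 genes, and 0 scored above its own best.

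As a set, the 52 peaks had scores close to those of the list. Their median score was 8.50 (exact 95% interval of a median 5.03 to 11.6), against 7.56 for all peaks, and 15 of them (28.8%) reached the upper quartile. Their median length was 474.5 bp, against 517 bp. Promoters held 13 of them (25.0%, 15.2 to 38.2%), against 25.2% of the list, and introns 3 (5.77%, 1.98 to 15.6%), against 14.6%. Intergenic space held 22 (42.3%, 29.9 to 55.8%), against 32.5%, exons 8 (15.4%, 8.01 to 27.5%), against 14.5%, and TTSs 6 (11.5%, 5.40 to 23.0%), against 13.2%. Of the 38 array peaks, 8 covered the TSS of their nearest gene (21.1%, 11.1 to 36.3%), against 25.2% of all peaks.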

How the data were processed

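ChIP-seq of FLAG-tagged VlbZIP30 gave 1 peak list from 2 libraries, anti-FLAG and control. The authors deposited a score for each peak, on a scale that is not named, with position, annotation, signed distance to the nearest TSS in bp and nearest gene, per the file headers. BWA, MACS2 and HOMER are named in the submitters' processing notes with no role or version; the build, the annotation and the handling of reads aligned to several places were not stated there.

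The members and lists were chosen with earlier results of these data known. Peaks were matched by identifier. The TSS and strand of a gene with 2 or more peaks followed from its peak centres and signed distances; 0 of 12847 such genes fitted no single TSS, and the functions were tested on simulated data. Gene numbers ran in steps of 10, counted from the lowest to the highest listed number of each block. Shares carry 95% Wilson intervals, densities exact Poisson intervals and medians exact binomial intervals, all over peaks or genes, which are not replicates. Named were both MYB genes, every array gene with a promoter peak, and the genes of the highest, longest and lowest-scoring peak of each array; other array genes are named to account for every member and were chosen after their values were seen. Of all listed identifiers, 0 were found in the RefSeq table of 29591 genes, so the planned account of other pathway genes and the motif search were not run. Alternatives covered score, length, the gene a peak is given to, the promoter window and the span. Scripts ran under Python 3.11.15 (pandas 2.3.3, numpy 2.4.6, matplotlib 3.10.9, scipy 1.17.1).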

Additional observations from a re-analysis of the deposited data

How the results depend on the processing

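Of 62 alternative values of 15 results, 11 moved, taken for counts as a change by over 1.5 times and for shares, medians and densities as a value outside the counting interval of the reported one; these intervals are wide, so some shares and densities inside them also changed by over 1.5 times. With scores at or above the median of the list, 30 member peaks with a median score of 18.3 were left. At or above the upper quartile, 15 were left, with a median of 28.6 and 6.67% in exons; the chromosome 16 array then had 7 named numbers and 1 gene with a promoter peak. Fewer peaks and higher medians follow from the threshold itself; the cause of the lower exon share was not tested. With the annotation gene alone, 28 peaks were left, 46.4% in promoters and 0% intergenic, since intergenic peaks carry no gene there, and 1 number of the chromosome 10 array was named. With the nearest gene alone, with peaks under 3 kb and with any part of a peak in the promoter window, no value moved in this sense. The last setting gave 12 instead of 9 genes with a promoter peak in the chromosome 16 array. The same count was not made for the whole list. Peak density of the chromosome 16 array was 71.0 per Mb from its first to its last peak, 83.5 between its first and last recovered TSS and 65.1 between the nearest other peaks, a span chosen after the data were seen. For the chromosome 10 array these were 75.7 and 11.6, with wide intervals over 2 peaks, and no TSS could be recovered. From first to last peak the arrays had 0.855 and 0.879 times the density of the rest of their chromosomes. The interval of the 71.0 per Mb, 49.7 to 98.3, held the 82.8 of chromosome 16. The 83.5 per Mb between recovered TSSs was above 82.8, but a TSS was recovered only for genes with 2 or more peaks. That span thus ended at VIT_16s0100g01040 (16509480), left out the sparse far end and does not describe the whole array. No paired analysis was possible because the anti-FLAG and control groups hold a single library each, and none could be left out. The depth is unknown, so its effect on stretches without peaks was not tested.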
